A study of Mus musculus with 18 samples.

Results

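The replication-dependent histone genes of the mouse were followed in wild-type and TET-deficient cells as they left pluripotency. The set held every gene of the count table that carries, now or as an older symbol, a name of the form Hist1h to Hist4h followed by a histone type. This rule gave 69 of the 25239 genes in the table. Of these, 9 were listed under the older name itself and 60 were found through the older symbols that RefSeq keeps for genes such as H1f1 (Hist1h1a) or H2ac1 (Hist1h2aa). By type, 6 are genes of the linker histone H1, 19 of H2A, 19 of H2B, 12 of H3 and 13 of H4, where Hist1h2al (H2A) and H2bu1-ps (H2B) are annotated as processed pseudogenes. By place, 55 lie in the large cluster on chromosome 13, 10 in the cluster on chromosome 3, 3 on chromosome 11 and 1 on chromosome 6.

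The 18 libraries came from E14Tg2a, a mouse embryonic stem cell line, and from a line derived from it in which CRISPR/Cas9 had removed the open reading frames of Tet1, Tet2 and Tet3 (TKO). The study's methods describe most work as done on 1 clone per genotype, so clone and genotype cannot be told apart. Both lines were turned into epiblast-like cells (EpiLCs) with Activin A and Fgf. EpiLCs were then grown in suspension in GK15 medium, either without added factors or with the germ-cell-promoting cytokines BMP4, BMP8a, SCF, LIF and EGF, to give primordial germ cell-like cell (PGCLC) aggregates. The 9 groups, of 2 libraries each, were wild-type EpiLCs, wild-type day 2 and day 6 without cytokines, wild-type day 6 with cytokines, TKO EpiLCs, and TKO day 2 and day 6 with and without cytokines. No wild-type day 2 group with cytokines is among the 18 libraries, so the genotypes could not be compared there. The study describes the wild-type day 6 cells with cytokines as sorted for SSEA1 and CD61, and all other populations as whole aggregates, while the sample labels call every day 2 and day 6 sample an aggregate. In each comparison with wild-type day 6 cells with cytokines, the sort and the genotype, cytokines or stage compared therefore cannot be told apart. The study calls its RNA-seq data points biological replicates, while the labels do not say whether the libraries of a group came from separate cultures. The p-values therefore measure only the spread between libraries of a group, pooled over all 9 groups. That pool includes wild-type day 6 cells without cytokines, whose 2 libraries differed the most.

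Replication-dependent histone genes supply the histones that package newly copied DNA, and their mRNAs accumulate in S phase. Their mRNAs lack introns and, in place of a poly(A) tail, end in a short stem-loop bound by SLBP; NPAT and CASP8AP2 act in their transcription and processing at the histone locus body. H2A, H2B, H3 and H4 form the nucleosome core and H1 binds the DNA between nucleosomes. A few members of the clusters are made mainly in germ cells, among them H1f6 (H1t), H2ac1 (TH2A) and H2bc1 (TH2B).

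A stem-loop core of 16 bases was found in the annotated transcripts (GENCODE M21, GRCm38) of 42 of the 69 members, of which 4 were H1, 11 H2A, 10 H2B, 8 H3 and 9 H4 genes. The most frequent core was present in 26 members and the next in 7. The cores are shown because they are the feature that sets these mRNAs apart and because those of H4 members differ from those of the other types. The most frequent core was found in H1, H2A, H2B and H3 members alike. Capitals mark the core, in DNA letters.
H1f2: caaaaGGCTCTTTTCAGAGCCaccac
H1f6: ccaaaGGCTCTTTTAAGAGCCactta
H2aw: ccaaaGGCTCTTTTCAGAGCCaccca
H2ac20: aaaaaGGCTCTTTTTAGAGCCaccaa
H2bu2: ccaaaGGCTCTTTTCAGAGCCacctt
H3c6: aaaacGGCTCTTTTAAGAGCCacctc
H4c4: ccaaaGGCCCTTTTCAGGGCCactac
H4c14: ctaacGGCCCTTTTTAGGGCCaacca
For the other members no match says only that these letters are not in the annotated transcript, which often ends at the stop codon.

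Promoters (250 bases before and 50 bases after the RefSeq start, GRCm38.p6) were matched for 62 members. CCAAT, on either strand, was in 100% of the H1, H2A, H2B and H3 promoters, in 25% of the H4 promoters and in 41.1% of the promoters of 27025 genes. The octamer ATTTGCAT, on either strand, was in 38.9% of the H2A and 43.8% of the H2B promoters, in 0% of the H1, H3 and H4 promoters and in 1.97% of all promoters. TATAAA, on either strand, was in 56.5% of the members' promoters and in 15.7% of all. None of the 3 motifs contains another. In 14 pairs of members the genes point away from each other with starts less than 1000 bases apart, and 13 of the pairs join an H2A with an H2B gene. The 14 octamer-bearing promoters hold 11 distinct sites, because 3 sites between such a pair were counted for both genes. The sites of H2ac20, H2ac6 and H2aw also lie between such a pair. They were counted once, since no promoter was matched for the partners H2bc21, H2bc4 and H2bu1-ps.

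One of these shared intervals is that of H2ac1 and H2bc1, whose values moved the most between groups. It spans GRCm38.p6 chr13:23934187-23934436, plus strand, between the RefSeq starts of H2bc1 at 23934156 (minus strand) and H2ac1 at 23934437 (plus strand), and it holds 6 CpG dinucleotides. Capitals mark the octamer (as ATGCAAAT), CCAAT or ATTGG, and TATAAA or TTTATA.
H2bc1 to H2ac1: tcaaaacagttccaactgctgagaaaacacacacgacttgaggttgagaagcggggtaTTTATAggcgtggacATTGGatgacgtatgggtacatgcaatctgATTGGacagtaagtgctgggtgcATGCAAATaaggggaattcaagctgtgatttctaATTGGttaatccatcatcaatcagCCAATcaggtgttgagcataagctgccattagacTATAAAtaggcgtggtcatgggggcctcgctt

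The coding parts of these genes are nearly alike, and fragments that map to several places were not counted. Over the annotated exons, the median share of 50-base windows that recur in another gene was 1.12% for H1, 67.6% for H2A, 43.8% for H2B, 57.2% for H3 and 39.5% for H4 members. Values of H2A, H2B, H3 and H4 members therefore rest on the part of each mRNA that is distinct and are uncertain as totals. H2ac18, Hist1h2ap, Hist1h2ao, Hist1h2bq, Hist1h2br and H3c15 had 0 counts in all 18 libraries. H2ac19, in which 100% of windows are shared, and H3c14 had 7 and 2 counts in all. These 8 did not pass the filter on low counts, which left 61 members tested (6 H1, 15 H2A, 17 H2B, 10 H3 and 13 H4). Counting ignored strand, so reads of a member and of a transcript on the opposite strand cannot be told apart.

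Library totals ran from 11286050 to 41257861 counts, of which 16.2% to 47.6% fell in Rn45s, the locus of ribosomal RNA. Levels in this paragraph and those that follow are normalised counts, the counts divided by DESeq2 size factors. Members took 0.775% to 2.41% of the counts other than Rn45s. The summed Tet1, Tet2 and Tet3 levels were 3919 to 16646 normalised counts in the wild-type libraries and 754 to 2457 in the TKO libraries. These are whole-gene counts, and the genes differed: in TKO against wild-type EpiLCs Tet1 (-2.82) and Tet3 (-2.64) were called lower and Tet2 (-1.17, adjusted p = 0.141) was not, while at day 2 without cytokines Tet3 was called lower (-3.52, adjusted p = 1.74e-06) and Tet1 (-0.30, adjusted p = 0.491) and Tet2 (0.61, adjusted p = 0.301) were not. EpiLC markers (Fgf5, Pou3f1, Otx2, Dnmt3b and Lef1) summed to 55533 and 59755 in wild-type and 27588 and 27047 in TKO EpiLCs and to at most 22860 elsewhere. The 7 PGCLC markers summed to 16691 and 14049 in wild-type day 6 cells with cytokines. They summed to 3579 to 7006 in the TKO day 2 and day 6 libraries and to at most 1362 in the remaining groups. In 1 group the libraries stood apart: in wild-type day 6 cells without cytokines, replicate 2 was above replicate 1 in 60 of 61 members, by a median of 2.34-fold. TKO day 6 cells with cytokines also differed, with replicate 1 above replicate 2 in 56 of 61 members and a median ratio of replicate 2 to replicate 1 of 0.696. In the other groups this ratio was 0.791 to 1.22. In the same wild-type day 6 pair, replicates 1 and 2 summed to 29871 and 51808 normalised counts over 31 S phase genes, to 69879 and 41235 over 12 neuron markers and to 24680 and 37766 over 9 neural progenitor markers. Whether these differences bear on the histone values was not tested, and counts that rest on this group are given with and without its libraries.

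Summed over all 69 members wild-type EpiLCs held 217821 and 239610 and the other wild-type groups 201768 and 218648 in wild-type day 2 cells without cytokines, 124162 and 301261 in wild-type day 6 cells without cytokines, and 109466 and 109848 in wild-type day 6 cells with cytokines. The wild-type groups with both libraries lowest were thus the PGCLCs, although replicate 1 of the day 6 cells without cytokines was close to them. In TKO cells the sums were 157676 and 141112 in EpiLCs, 86788 and 98340 at day 2 without cytokines, 202017 and 190230 at day 2 with cytokines, 102573 and 124546 at day 6 without cytokines, and 202121 and 137855 at day 6 with cytokines. In these normalised counts, both cytokine-free TKO groups lay below both TKO groups with cytokines, with no overlap. The Rn45s share split the same libraries, at 16.2% to 20.9% without and 31.7% to 37.3% with cytokines. As a share of all counts these groups overlapped. Members took 0.733% in TKO day 6 replicate 2 with cytokines and 0.790% and 0.874% at day 6 without. As a share of the counts other than Rn45s they did not overlap. Whether the Rn45s share bears on the histone sums was not tested. In bulk samples, fewer cells in S phase and less histone mRNA per cell cannot be told apart. Over the 31 S phase genes, wild-type EpiLCs summed to 121774 and 109276, against 75426 and 69673 in wild-type day 6 cells with cytokines. TKO day 2 cells summed to 61716 and 64454 without and 83905 and 72827 with cytokines. Both differences had the direction of the histone sums. In some other comparisons of groups this was not so. TKO day 2 cells with cytokines overlapped wild-type day 6 cells with cytokines over the S phase genes, while their histone sums lay above with no overlap. Wild-type day 2 cells without cytokines summed to 72009.7 and 77642 over the S phase genes, close to the PGCLCs, while their histone sums were close to those of EpiLCs. Wild-type day 6 cells without cytokines had the lowest S phase sums of the series, while the histone sum of replicate 2 was the highest of the series. The part of S phase genes in the histone values was not tested.

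**Figure D1:**
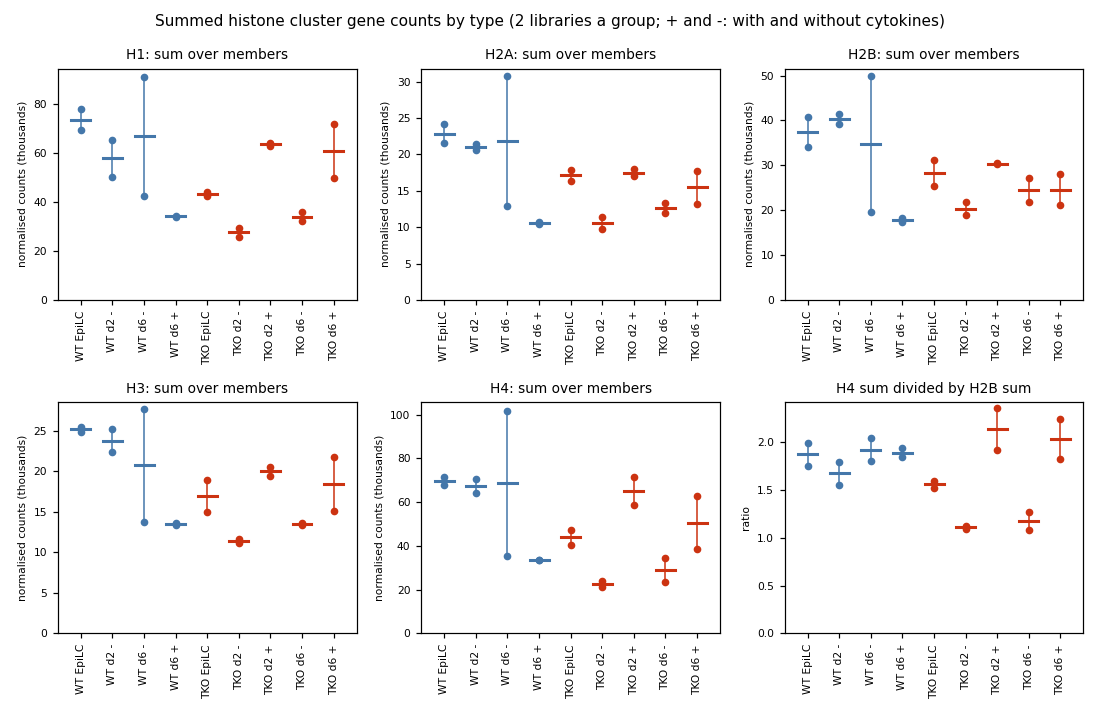
Summed normalised counts (in units of 1000, linear axes from 0) of the H1, H2A, H2B, H3 and H4 members in each library, with the ratio of the H4 to the H2B sum in the last panel; points are the 2 libraries of a group, bars their mean, blue wild-type and red TKO, and + and - mark cytokines. Wild-type PGCLCs are below wild-type EpiLCs in every type, TKO day 2 cells are lower without than with cytokines in every type, and the ratio of H4 to H2B is 1.08 to 1.27 in the 4 cytokine-free TKO day 2 and day 6 libraries.

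As wild-type EpiLCs became PGCLCs, histone genes of every type fell. All 61 members tested had a lower fitted level in wild-type day 6 cells with cytokines than in wild-type EpiLCs. By the quasi-likelihood test of edgeR, with p-values adjusted by Benjamini and Hochberg's method here and in all comparisons that follow, 37 were called lower and 0 higher (adjusted p below 0.05), where 18.2% of all 16582 genes tested were called lower and 22.4% higher. The median log2 fold change was -1.05 over members and 0.07 over all genes. The calls were 3 of 6 H1, 10 of 15 H2A, 11 of 17 H2B, 5 of 10 H3 and 8 of 13 H4 genes. Leaving out any 1 of the 4 libraries left 20 to 24 members called, namely 24 and 21 without wild-type EpiLC replicates 1 and 2 and 20 and 21 without the PGCLC replicates 1 and 2.

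The early step without cytokines showed no such shift. At day 2 without cytokines, the test called 2 members higher and 4 lower in comparison with wild-type EpiLCs, against 18.6% and 15.7% of all genes. The median was 0.05, and -0.00 with DESeq2 factors, so it had no stable sign. The 2 higher were H1f4 (0.95, SE 0.27, adjusted p = 0.0133) and Hist1h4n (1.17, SE 0.44, adjusted p = 0.049, and 0.44 and not called without day 2 replicate 1), and the 4 lower were H1f1 (-1.10, adjusted p = 0.0344), H1f6 (-1.52, adjusted p = 0.000833), H2ac1 and H2bc1. With counts scaled by library size alone, which moved the median of all genes by 0.59, the split was 20 higher and 3 lower. Without wild-type EpiLC replicate 1 or day 2 replicate 1, 3 members were called in place of 6. From day 2 to day 6 without cytokines, 1 member was called higher and 5 lower, against 20.5% and 19.0% of all genes, with a median of -0.21. The 1 higher was H2bu2 (0.93, adjusted p = 0.0189, 1.23 without day 6 replicate 1, and 0.53 and not called without replicate 2), and the 5 lower were H1f6, H2ac1, H2ac11, H2bc7 and Hist1h4n (-1.51, adjusted p = 0.0132, -2.08 without day 6 replicate 2, and -1.09 and not called without replicate 1), of which H2bc7 was named after its value was seen. That count rested on single libraries: without day 6 replicate 2, 0 members were called higher and 47 lower, without day 6 replicate 1 there were 9 higher and 1 lower, and without day 2 replicate 1 only 1 member was called.

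The comparison of wild-type day 6 cells with and without cytokines called 3 members higher and 28 lower with cytokines, against 29.6% and 28.6% of all genes, with a median of -0.81. The 3 higher were the germ-cell forms H1f6, H2ac1 and H2bc1. The share of members called lower was above that of all genes, but the count depended on the pair of cytokine-free libraries that differed. Without replicate 2 of that group, 6 members were called higher and 8 lower, and without replicate 1 there were 2 higher and 51 lower. Without PGCLC replicate 1 or 2 the count was 18 or 15.

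TKO cells were set against wild-type cells in 4 comparisons, in which clone and genotype cannot be told apart. In EpiLCs 2 members were called lower and 0 higher, against 3.18% and 7.57% of all genes. The fitted change was negative in 55 of 61 members with a median of -0.42. The 2 were H1f1 and H3c7, and without wild-type EpiLC replicate 1 or 2 or TKO EpiLC replicate 2 the count was 0. At day 2 without cytokines, 43 members were called lower and 3 higher in TKO cells, against 14.8% and 18% of all genes, with a median of -1.13. Lower calls were made for 4 of 6 H1, 9 of 15 H2A, 12 of 17 H2B, 6 of 10 H3 and 12 of 13 H4 genes. Without TKO replicate 1 or 2, 16 or 22 members were called in all, and without wild-type replicate 1 or 2, 31 or 34.

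At day 6 without cytokines, 22 members were called lower and 4 higher in TKO cells, against 26.9% and 28.5% of all genes, with a median of -0.52. The 4 higher were H1f6, H2ac1, H2bc1 and Hist1h2an (1.17, adjusted p = 0.0252, 1.81 without wild-type replicate 2, and 0.70 and not called without replicate 1). Without replicate 2 of the wild-type group there were 15 higher and 8 lower, and without replicate 1 there were 3 higher and 42 lower, so neither the count nor the balance of directions held without single wild-type libraries. Without TKO replicate 1 the count was 17. At day 6 with cytokines, 9 members were called higher and 0 lower in TKO cells, against 11.3% and 7.53% of all genes, with a median of 0.54. Without wild-type replicate 1 or TKO replicate 1 the count was 3, and without wild-type replicate 2 it was 6.

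**Figure D2:**
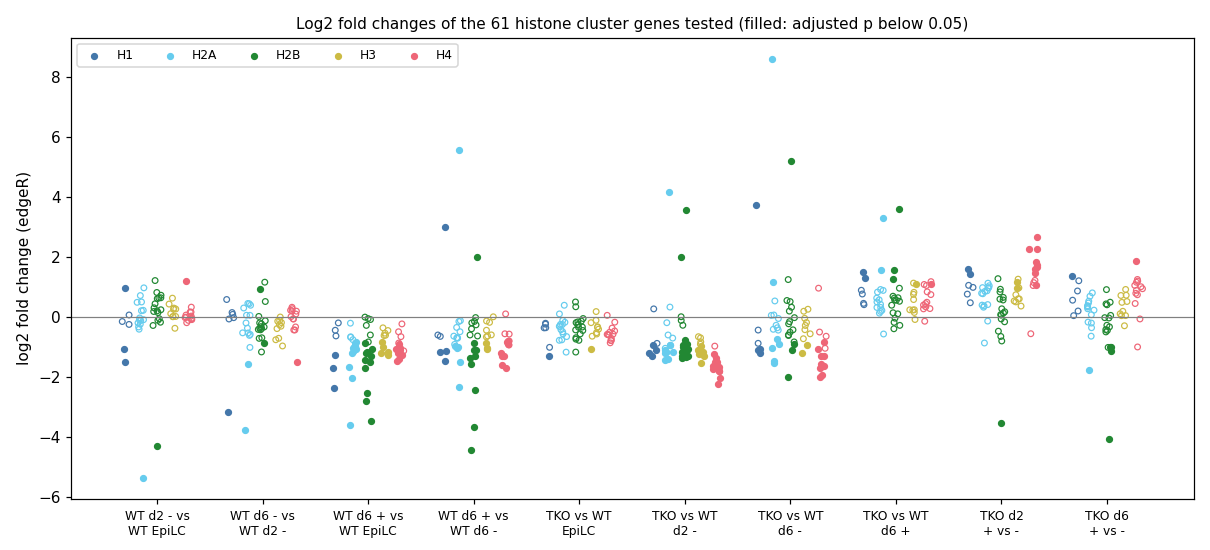
Log2 fold changes (edgeR, vertical axis) of the 61 members tested in 10 comparisons, coloured by histone type; filled points have an adjusted p below 0.05. The members lie mostly below 0 in wild-type PGCLCs against EpiLCs (median -1.05) and in TKO against wild-type day 2 cells without cytokines (median -1.13), and H2ac1 and H2bc1 stand apart on the opposite side in the latter.

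Within TKO cells, day 2 was compared with EpiLCs separately without and with cytokines. Without cytokines, the test called 2 members higher and 10 lower in comparison with TKO EpiLCs, against 10.1% and 8.52% of all genes, with a median of -0.58. With counts scaled by library size alone the split was 4 higher and 1 lower. The 2 higher were H2bc21 and Hist1h2an, and the lowest fitted values were those of Hist1h4m (-1.96, adjusted p = 0.0128) and H4c12 (-1.37, adjusted p = 0.0139). Leaving out 1 library gave 8 and 3 (TKO EpiLC replicates 1 and 2) and 1 and 1 (TKO day 2 replicates 1 and 2). With cytokines, edgeR called 0 members (5 had an unadjusted p under 0.05, and DESeq2 called 2 lower), against 7.88% higher and 6.39% lower of all genes. The median was 0.19, and 3 members were called without TKO EpiLC replicate 1. The direct comparison of TKO day 2 cells with and without cytokines called 13 members higher with cytokines and 1 lower, against 2.05% and 2.47% of all genes, with a median of 0.78. With counts scaled by library size alone 7 were called higher and 5 lower. Of the 13, 9 were H4, 2 H1 and 2 H3 genes. The calls were sensitive to single libraries: without cytokine-free replicate 1 or 2 the count was 1 or 0, and without cytokine replicate 1 or 2 it was 0 or 3. At day 6 the same comparison called 2 members higher and 5 lower, against 2.56% and 3.05% of all genes, with a median of 0.31 that became -0.21 when counts were scaled by library size alone, with 1 higher and 9 lower. The 2 higher were H1f2 and Hist1h4m (1.85, adjusted p = 0.0361), and the 5 lower were H2bc21, Hist1h2an, H2bu2 (-1.16, adjusted p = 0.0371) and, named after their values were seen, H2bc14 and H2bc15. Leaving out 1 library left 1 member called, or 3 without cytokine replicate 2.

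From day 2 to day 6, edgeR called 0 members in TKO cells with cytokines (0 with an unadjusted p under 0.05 and 0 in DESeq2, against 4.28% higher and 1.72% lower of all genes) and 0 without cytokines (again 0 and 0, against 0.422% and 0.0543%). The medians were -0.18 and 0.29. Day 2 TKO cells with cytokines exceeded day 6 wild-type PGCLCs in 20 members and were lower in 0, against 10.4% and 9.49% of all genes, with a median of 0.77. Without wild-type replicate 1 or 2 the count was 3 or 5, and without TKO replicate 1 or 2 it was 6 or 11.

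The difference between genotypes in the response to cytokines at day 6 was tested as an interaction. It called 28 members higher and 2 lower, against 21% and 22.0% of all genes, with a median of 1.23. A positive value means that members were higher with cytokines relative to without in TKO than in wild-type cells. H2bu2 (3.28; 3.58 and 2.88 without wild-type cytokine-free replicate 1 and 2) and Hist1h4m (3.08; 3.69 and 2.03) had the highest values and H1f6 (-2.45; -2.32 and -2.55) and H2ac1 the lowest. Without wild-type cytokine-free replicate 1 or 2, 45 or 26 members were called, and without TKO cytokine replicate 1, 20. The interaction of genotype with the step from EpiLC to day 2 without cytokines called 2 members higher and 1 lower, against 6.08% and 6.19% of all genes, with a median of -0.73. The 3 were H2ac1 and H2bc1, both higher, and Hist1h2bp (-1.63, adjusted p = 0.0459). Without wild-type EpiLC replicate 2 the count was 1, without TKO EpiLC replicate 2 it was 5. Several of these 17 comparisons share libraries, so their counts are given side by side and were not compared with each other.

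Of the 6 linker histone genes, 3 were called lower in wild-type PGCLCs than in EpiLCs. H1f1 held 28960 and 31268 normalised counts in wild-type EpiLCs, 8537 and 18565 in wild-type day 2 cells without cytokines, and 7521 and 19018 at day 6. In wild-type PGCLCs it held 5970 and 5323. Both EpiLC libraries were above all others of the series, and the PGCLCs were the lowest wild-type group. In TKO cells H1f1 was at 11355 and 12096 in EpiLCs, 5670 and 6287 at day 2 and 6059 and 8067 at day 6 without cytokines, and 14074 and 17253 at day 2 and 18380 and 13521 at day 6 with cytokines. TKO EpiLCs were therefore well below wild-type EpiLCs, and TKO cells with cytokines were above TKO cells without.

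By the test, H1f1 fell in wild-type PGCLCs against EpiLCs (log2 fold change -2.37, SE 0.39, adjusted p = 0.000258), a call kept under every alternative. It was lower in TKO than in wild-type EpiLCs (-1.33, SE 0.38, adjusted p = 0.0351), a call lost without any 1 of the 4 libraries (-1.25 to -1.40). It was higher in TKO than in wild-type day 6 cells with cytokines (1.49, SE 0.38, adjusted p = 0.013) and in TKO day 2 cells with against without cytokines (1.41, SE 0.38, adjusted p = 0.0477). The last of these calls was lost without any 1 of the 4 libraries (1.25 to 1.56), and that at day 6 was lost without wild-type replicate 1 (1.57) or 2 (1.41) or TKO replicate 1 (1.24).

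H1f2, the most abundant H1 gene by mean normalised count (14808 over the 18 libraries, not per length), followed another course. It held 15030 and 16566 in wild-type EpiLCs and 13405 and 13071 in PGCLCs, a log2 difference of -0.21 that was not called. In TKO cells it was at 6091 and 6850 at day 2 and 8773 and 9010 at day 6 without cytokines, and at 19119 and 19161 and at 26166 and 18518 with cytokines. The groups with and without cytokines did not overlap at either time. It rose with cytokines at day 2 (1.58, adjusted p = 0.00808) and day 6 (1.35, SE 0.29, adjusted p = 0.014), calls lost without any 1 of 3 libraries each (1.51 to 1.66 and 1.07 to 1.35).

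The makeup of H1 shifted accordingly. H1f1 made up 41.8% and 40.3% of the summed H1 counts in wild-type EpiLCs and 17.4% and 15.7% in PGCLCs, while H1f2 went from 21.7% and 21.3% to 39.1% and 38.6%. In TKO EpiLCs H1f1 was at 26.7% and 27.6%. These shares do not depend on the scaling between libraries and are given as a description, with no test.

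H1f4, a somatic linker histone, was at 5163 and 6896 in wild-type EpiLCs and 12272 and 10326 at day 2 without cytokines, its highest wild-type levels together with 10260 and 14235 at day 6. It was at 4132 and 4409 in PGCLCs and 4530 and 4838 in TKO day 2 cells without cytokines. The rise to day 2 in wild-type cells was called (0.95, SE 0.27, adjusted p = 0.0133) but not without wild-type EpiLC replicate 1 (0.74) or day 2 replicate 1 (0.84), and the TKO value at day 2 was lower than wild-type (-1.30, SE 0.27, adjusted p = 0.00204). H1f5 fell from wild-type EpiLCs to PGCLCs (-1.28, SE 0.35, adjusted p = 0.00988). H1f3 had a log2 difference of -0.65 there and was not called.

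H1f6, the linker histone of meiotic germ cells, was the least abundant H1 gene. It was at 233 and 321 in wild-type EpiLCs, 85.8 and 102 at day 2 without cytokines, 9.97 and 11.6 at day 6 without cytokines and 70.9 and 94.6 in PGCLCs. In TKO cells every library lay between 95.5 and 244. The wild-type day 6 libraries without cytokines were below all others, about alike although they differed in other members. From day 2 to day 6 H1f6 fell in wild-type cells without cytokines (-3.18, SE 0.34, adjusted p = 4.6e-06; -3.28 and -3.05 without day 6 replicate 2 and 1). At day 6 it was higher in TKO than in wild-type cells both without cytokines (3.72, SE 0.34, adjusted p = 3.98e-07; 3.81 and 3.58 without wild-type replicate 2 and 1) and with cytokines (1.27, SE 0.28, adjusted p = 0.00639; not called without wild-type replicate 1, 1.07).

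**Figure D3:**
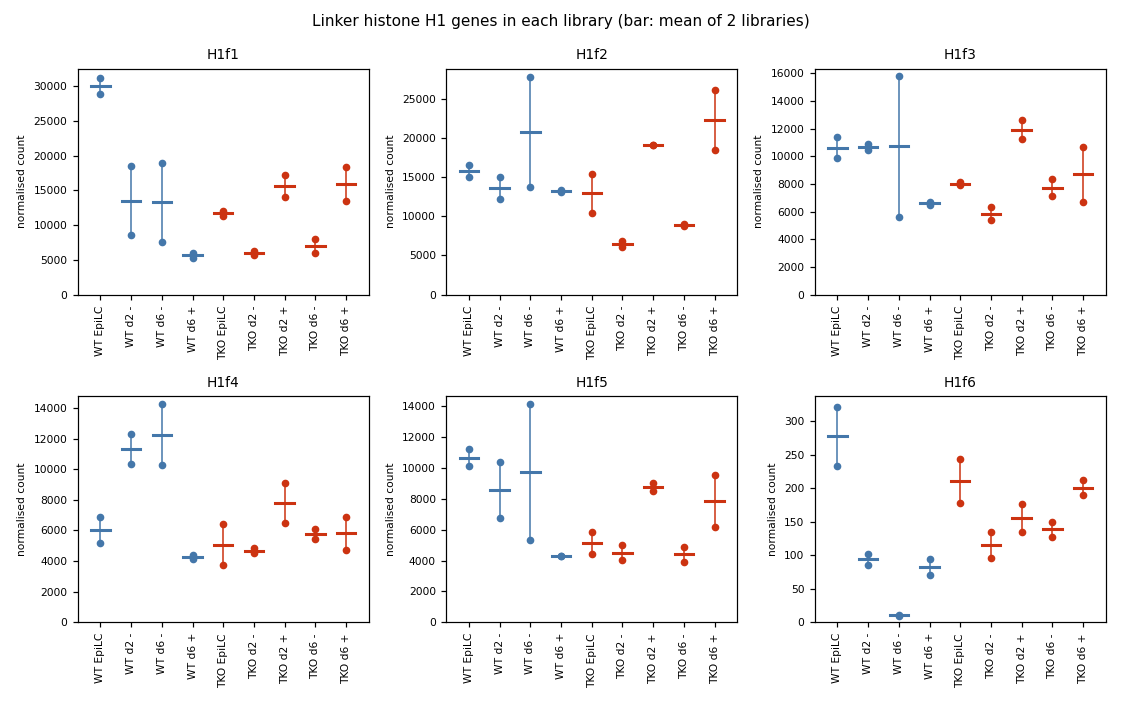
Normalised counts of the 6 H1 genes in each library (linear axes from 0; points are libraries, bars the mean of 2, blue wild-type and red TKO). H1f1 is highest in the 2 wild-type EpiLC libraries (28960 and 31268), H1f2 is higher with than without cytokines in TKO cells, and H1f6 is near 10 in the wild-type day 6 libraries without cytokines (9.97 and 11.6).

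H2ac1 and H2bc1, the germ-cell forms of H2A and H2B that share the interval printed above, had the largest fold changes among members. H2ac1 (chromosome 13, 23934462 to 23934851, GRCm38) was at 294 and 579 in wild-type EpiLCs, 14.6 and 6.22 at day 2 without cytokines, 0.907 and 0 at day 6 without cytokines, and 20.9 and 48.3 in PGCLCs. In TKO cells it was at 372 and 133 in EpiLCs, 188 and 184 at day 2 without and 320 and 390 with cytokines, and 243 and 337 at day 6 without and 349 and 336 with cytokines. The wild-type EpiLC libraries lay in or above the range of the TKO libraries, and every TKO library was above every wild-type day 2 and day 6 library.

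H2bc1 (chromosome 13, 23933773 to 23934156) had the same pattern. It was at 183 and 386 in wild-type EpiLCs, 15.6 and 12.4 at day 2 and 4.08 and 10.4 at day 6 without cytokines, and 13.2 and 36.0 in PGCLCs. In the 10 TKO libraries it ran from 108 to 411, again with no overlap with the wild-type day 2 and day 6 libraries.

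From wild-type EpiLCs to day 2 without cytokines, H2ac1 fell by 5.38 on the log2 scale (SE 0.59, adjusted p = 1.14e-05) and H2bc1 fell by 4.31 (SE 0.69, adjusted p = 0.000252). To PGCLCs H2ac1 fell by 3.62 (SE 0.51, adjusted p = 6.9e-05) and H2bc1 fell by 3.49 (SE 0.63, adjusted p = 0.000552). In TKO against wild-type cells both rose at day 2 without cytokines, H2ac1 by 4.15 (SE 0.59, adjusted p = 8.91e-05) and H2bc1 by 3.56 (SE 0.69, adjusted p = 0.00111). At day 6 with cytokines the differences were 3.30 (SE 0.51, adjusted p = 0.000505) and 3.59 (SE 0.64, adjusted p = 0.00143). These calls were kept under every alternative. In EpiLCs neither was called between genotypes.

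In wild-type day 6 cells without cytokines H2ac1 had 2 counts in replicate 1 and 0 in replicate 2, so fitted fold changes against that group depend on the prior count. As ratios of the counts of both libraries together, scaled by size factors, with exact 95% intervals that cover counting error only, H2ac1 was 440-fold higher in TKO day 6 cells without cytokines (121 to 3640), 53.9-fold higher in wild-type day 6 cells with cytokines (14.5 to 451) and 15.3-fold higher in wild-type day 2 cells without cytokines (3.77 to 134). H2bc1, with more counts, was higher in TKO than in wild-type day 6 cells without cytokines by 5.20 (SE 0.76, adjusted p = 3.9e-05; 5.81 and 4.47 without wild-type replicate 2 and 1). The fall from EpiLC to day 2 without cytokines was smaller in TKO than in wild-type cells, by an interaction of 4.93 for H2ac1 (SE 0.74, adjusted p = 0.000576) and 3.82 for H2bc1 (SE 0.88, adjusted p = 0.0104), the latter not called without wild-type EpiLC replicate 2 (3.14) or day 2 replicate 2 (3.69).

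Other germ-cell genes were not at the same levels in these libraries. Over 9 spermatogenic marker genes, wild-type EpiLCs summed to 700.4 and 802, against 193 and 141 at day 2 and 104 and 30.1 at day 6 without cytokines, 1274 and 1289 in PGCLCs, and 1139 to 4385 in TKO libraries. PGCLCs thus had higher sums than wild-type EpiLCs but lower H2ac1 and H2bc1. Whether these markers and the histone pair move together was not tested.

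Of the somatic H2A genes, H2aw (Hist3h2a, chromosome 11) was the most abundant by mean normalised count (3440, not per length). It was at 4746 and 4852 in wild-type EpiLCs, 1131 and 1114 in PGCLCs and 4087 and 2541 in TKO day 6 cells with cytokines. Without cytokines it was at 3043 and 5387 and then 3839 and 7972 in wild-type cells at day 2 and day 6, and at 1904 and 1914 and then 2063 and 2129 in TKO cells. H2aw fell in wild-type PGCLCs against EpiLCs (-2.05, SE 0.32, adjusted p = 0.000161) and was higher in TKO than in wild-type day 6 cells with cytokines (1.56, SE 0.32, adjusted p = 0.0034, not called without TKO replicate 1). H2ac4 (-1.46, adjusted p = 0.00385) and H2ac15 (-0.96, adjusted p = 0.0127), next in level, were lower in TKO day 2 cells without cytokines. H2ac20 also fell there (-1.18, adjusted p = 0.0215), while H2ac21, its neighbour on chromosome 3, was not called. Hist1h2an went the other way in TKO cells, from 233 and 73.7 in EpiLCs to 312 and 502 at day 2 without cytokines (1.39, SE 0.42, adjusted p = 0.0324, not called without 3 of the 4 libraries, 0.79 to 1.68). At day 6 it was lower with cytokines (-1.79, SE 0.43, adjusted p = 0.0258, called in none of the fits with a library left out, -1.59 to -1.97). H2ac11 fell from day 2 to day 6 in wild-type cells without cytokines (-1.59, SE 0.51, adjusted p = 0.0222, not called without day 2 replicate 1, -1.02, or day 6 replicate 1, -1.33, and -1.89 without day 6 replicate 2).

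The H2B gene H2bc21 (Hist2h2be), known for its use in olfactory sensory neurons, was rare and was highest in TKO cells without cytokines. It was at 4.82 and 20.6 in wild-type EpiLCs, 15.6 and 47.4 at day 2 and 63.9 and 83.4 at day 6 without cytokines, and 11.8 and 14.2 in PGCLCs. In TKO cells it was at 9.92 and 6.60 in EpiLCs, 95.5 and 165 at day 2 and 131 and 209.5 at day 6 without cytokines, and 7.93 and 13.7 at day 2 and 13.4 and 6.89 at day 6 with cytokines. The 4 cytokine-free TKO libraries were the highest of the series. H2bc21 rose in TKO cells from EpiLC to day 2 without cytokines (3.93, SE 0.66, adjusted p = 0.00124) and was lower with cytokines at day 6 (-4.08, SE 0.67, adjusted p = 0.0035), both kept with any library left out. At day 2 it was lower with cytokines (-3.56, SE 0.65, adjusted p = 0.00808), a call lost without 3 of the 4 libraries (-3.13 to -4.0). Against wild-type cells it was higher in TKO cells at day 2 without cytokines (1.98, SE 0.57, adjusted p = 0.0144), a call lost without wild-type replicate 1 (1.39) or TKO replicate 2 (1.54). Its neighbour H2ac20, whose start is 238 bases away on the other strand, moved the opposite way there.

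H2bu2 (Hist3h2ba), on chromosome 11 near H2aw, had its lowest levels in wild-type day 6 cells with cytokines, where cytokines and the sort cannot be told apart. It was at 829 and 976 in wild-type EpiLCs, 1368 and 1489 at day 2 and 2147 and 3466 at day 6 without cytokines, and 86.9 and 164 in PGCLCs. In TKO cells its range was 293 to 757. H2bu2 fell in PGCLCs against EpiLCs (-2.80, adjusted p = 1e-05) and was lower in wild-type day 6 cells with than without cytokines (-4.44, SE 0.34, adjusted p = 3.73e-08; -4.04 and -4.74 without cytokine-free replicate 2 and 1). It was lower in TKO than in wild-type day 6 cells without cytokines (-2.01, SE 0.30, adjusted p = 4.91e-05; -1.62 and -2.33 without wild-type replicate 2 and 1) and higher with cytokines (1.26, adjusted p = 0.011; not called without wild-type replicate 1, 0.88, or TKO replicate 1, 1.20). The pseudogene H2bu1-ps, head to head with H2aw at 172 bases, was also lower in PGCLCs than in EpiLCs (-2.55, adjusted p = 0.000414) and than in wild-type day 6 cells without cytokines (-3.68, SE 0.45, adjusted p = 5.75e-06; -3.32 and -3.96 without cytokine-free replicate 2 and 1). The most abundant H2B gene, H2bc18 (10510 on average by normalised count, not per length), fell in PGCLCs against EpiLCs (-1.53, adjusted p = 0.00647) and was lower in TKO day 2 cells without cytokines (-1.36, adjusted p = 0.0154, not called without wild-type replicate 2, -1.35, or TKO replicate 1, -1.29, or 2, -1.44). H2bc3 (-0.92, adjusted p = 0.039) and H2bc8 (-0.79, adjusted p = 0.0333) were lower in TKO cells in the same comparison.

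**Figure D4:**
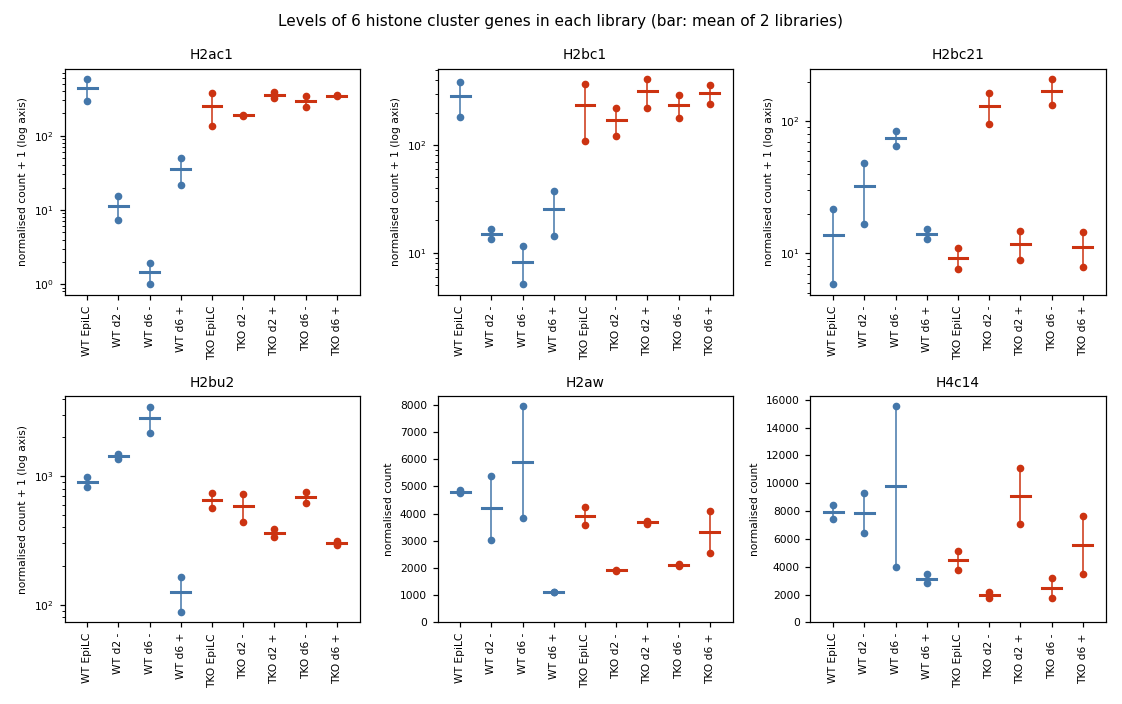
Normalised counts of H2ac1, H2bc1, H2bc21 and H2bu2 (plus 1, log axes) and of H2aw and H4c14 (linear axes from 0) in each library; points are libraries, bars the mean of 2, blue wild-type and red TKO. H2ac1 and H2bc1 are low in the 6 wild-type day 2 and day 6 libraries only, and H2bc21 is highest in the 4 cytokine-free TKO day 2 and day 6 libraries (95.5 to 209.5).

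Among H3 genes, which encode the replication-dependent H3.1 and H3.2, 6 of 10 were called lower in TKO day 2 cells without cytokines. H3c6 (Hist1h3e), the most abundant by mean normalised count, was at 9151 and 9576 in wild-type EpiLCs, 6811 and 6986 at day 2 without cytokines, 5199 and 4792 in PGCLCs, and 3263 and 3023 in TKO day 2 cells without cytokines. It fell in PGCLCs against EpiLCs (-0.86, SE 0.23, adjusted p = 0.00852, not called without EpiLC or PGCLC replicate 2, -0.81 and -0.80) and was lower in TKO than in wild-type day 2 cells (-1.17, SE 0.24, adjusted p = 0.00159), the latter kept with any library left out. H3c7 was at 3706 and 3889 in wild-type and 1954 and 1545 in TKO EpiLCs (-1.09, SE 0.29, adjusted p = 0.0288, not called without any 1 of these libraries, -0.94 to -1.26). In TKO day 2 cells without cytokines it was lower by -1.55 on the log2 scale (SE 0.30, adjusted p = 0.00107). H3c3 was not called in that comparison, and H3c13, of the chromosome 3 cluster, was (-1.13, adjusted p = 0.0104). Over the 10 H3 genes tested the log2 fold change there ran from -1.55 to -0.67, negative in each.

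The H4 genes had the lowest median of the 5 types in TKO against wild-type day 2 cells without cytokines, -1.66, where the medians of H1, H2A, H2B and H3 were -1.03, -1.06, -1.02 and -1.05. The difference between types was not tested. H4c4 (Hist1h4d), the most abundant by mean normalised count, was at 12805 and 12782 in wild-type EpiLCs, 9864 and 11563 at day 2 without cytokines, 5672 and 6321 in PGCLCs, and 7021 and 6640 in TKO EpiLCs. In TKO cells without cytokines it was at 3886 and 3868 at day 2 and 3916 and 4866 at day 6, and with cytokines at 6994 and 8934 and at 8083 and 6287. The cytokine-free TKO libraries were the lowest of the series. H4c4 was lower in TKO than in wild-type day 2 cells (-1.50, SE 0.29, adjusted p = 0.00102) and fell in PGCLCs against EpiLCs (-1.05, SE 0.28, adjusted p = 0.00824, not called without PGCLC replicate 1, -0.97).

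H4c14 (Hist2h4), of the chromosome 3 cluster and with 1.01% of its windows shared, was at 6462 and 9331 in wild-type and 1719.7 and 2163 in TKO day 2 cells without cytokines. With cytokines the TKO day 2 libraries were at 11069.6 and 7099. It was lower in TKO than in wild-type cells (-2.06, SE 0.51, adjusted p = 0.00624, not called without TKO replicate 1, -1.92) and higher with than without cytokines in TKO cells (2.24, SE 0.51, adjusted p = 0.0247, called in none of the fits with a library left out, 1.90 to 2.53). Hist1h4m, in which 89.8% of windows are shared, was at 1151 and 1547 in wild-type and 267 and 317 in TKO day 2 cells without cytokines (-2.24, SE 0.49, adjusted p = 0.00261). With cytokines it was at 2518 and 1069.9 (2.64, SE 0.49, adjusted p = 0.00921, not called without 3 of the 4 libraries, 1.90 to 2.76). At day 6 it was lower in TKO than in wild-type cells without cytokines (-2.01, SE 0.48, adjusted p = 0.00235), but without wild-type replicate 2 the value was -0.97 and was not called (-2.62 without replicate 1). H4c12 and H4c8 were lower in TKO day 2 cells as well (-1.82, adjusted p = 0.00105, and -1.50, adjusted p = 0.00347). H4f16 (Hist4h4), the single member on chromosome 6, was also lower (-1.39, adjusted p = 0.00369). Hist1h4n was the 1 H4 gene not called there.

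The ratio of summed H4 to summed H2B counts, which does not depend on the scaling between libraries, was chosen after its values were seen and is given as a description. It was 2.00 and 1.75 in wild-type EpiLCs, 1.55 and 1.80 and then 1.80 and 2.04 at day 2 and day 6 without cytokines, and 1.94 and 1.85 in PGCLCs. In TKO cells it was 1.52 and 1.60 in EpiLCs, 1.13 and 1.10 at day 2 and 1.08 and 1.27 at day 6 without cytokines, and 2.36 and 1.92 and then 2.24 and 1.83 with cytokines. The 4 cytokine-free TKO day 2 and day 6 libraries lay below the other 14.

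**Figure D5:**
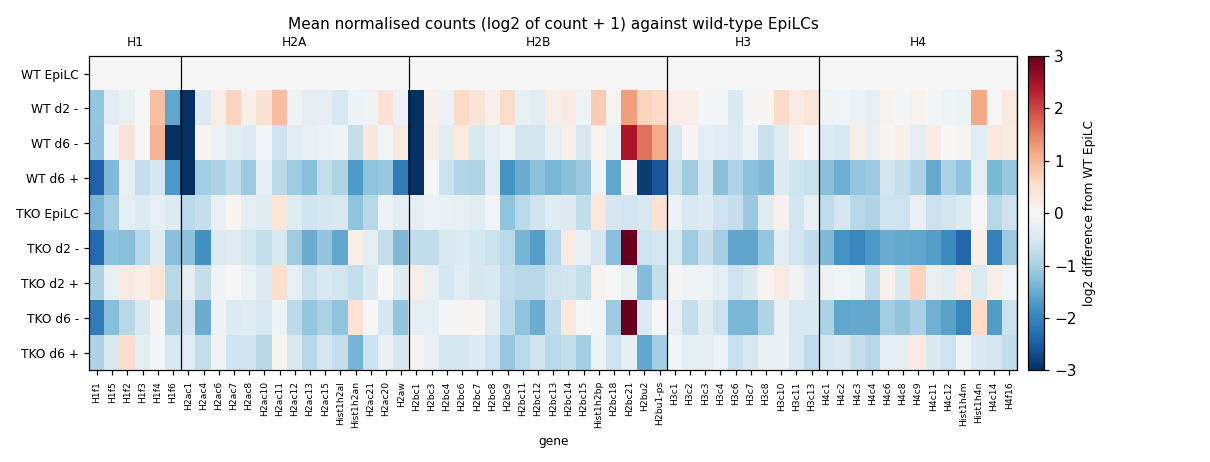
Log2 differences of the mean normalised count (plus 1) from wild-type EpiLCs for the 61 members tested (columns, by type) in the 9 groups (rows), with colours limited at 3 in either direction. Blue (lower) fills most of the rows of wild-type day 6 cells with cytokines and of TKO day 2 cells without cytokines, and H2bc21 is dark red (higher) in TKO cells without cytokines at both times.

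Over the 61 members, the group with the lowest mean was wild-type PGCLCs for 29 and TKO day 2 cells without cytokines for 25, which included 11 of the 13 H4 genes. The highest mean was in wild-type day 2 cells without cytokines for 20, wild-type EpiLCs for 18 and wild-type day 6 cells without cytokines for 12.

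Lower calls in TKO day 2 cells without cytokines were made in members with few and with many shared windows. With up to 20% of windows shared, 12 of 17 members were called lower (median -1.18), with 20% to 60% it was 18 of 25 (median -1.18) and with over 60% it was 13 of 19 (median -1.12). With and without an annotated stem-loop, 27 of 36 and 16 of 25 were called lower (medians -1.19 and -1.08). In the comparison of TKO day 2 cells with and without cytokines, 0 of 14 members with an octamer in the promoter and 11 of 40 without were called higher, against 2.05% of all genes, while the medians were 0.79 and 0.82. The octamer was found only in H2A and H2B promoters, and 0 of 15 H2A and 0 of 17 H2B members were called higher, with an octamer or without. Octamer and histone type therefore cannot be told apart in these counts. Of all 14 calls in that comparison, leaving out 1 library kept 0 to 3. In 10 of the 12 head-to-head pairs with both genes tested, both fitted changes of TKO against wild-type day 2 cells without cytokines had the same sign. Over all members the change was negative in 56 of 61, so most members share a sign and the count does not set the pairs apart.

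The lists that follow are set beside the shares of all genes called, which were 18% higher and 14.8% lower in TKO against wild-type day 2 cells without cytokines and 22.4% higher and 18.2% lower in PGCLCs against EpiLCs. Of 18 genes for histone mRNA transcription and 3′ end processing, 2 were called higher and 2 lower in TKO against wild-type day 2 cells without cytokines (median -0.23), and 1 higher and 5 lower in wild-type PGCLCs against EpiLCs (median -0.22). Slbp, the stem-loop binding protein, fell in PGCLCs (-0.48, SE 0.17, adjusted p = 0.0335), and its value in TKO day 2 cells was -0.35 (adjusted p = 0.135). Npat, the activator at the histone locus body, rose in PGCLCs (0.54, SE 0.17, adjusted p = 0.0209). Casp8ap2 was at -0.09 in TKO day 2 cells (adjusted p = 0.79). Of 31 S phase genes, 3 were called higher and 15 lower in PGCLCs (median -0.66), and 2 higher and 5 lower in TKO day 2 cells (median -0.28). Of 20 histone chaperones, 3 were called higher and 11 lower in PGCLCs, and 3 and 3 in TKO day 2 cells. Of 18 mitotic genes, 3 were called higher and 1 lower in PGCLCs and 0 and 3 in TKO day 2 cells, and of 10 cell cycle inhibitors 6 and 1, and 4 and 2.

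Replication-independent variants, which are made outside S phase as well, were also counted. Of 21 listed, 14 were tested, with 3 called higher and 4 lower in PGCLCs against EpiLCs (median -0.04; 22.4% and 18.2% of all genes) and 0 higher and 7 lower in TKO against wild-type day 2 cells without cytokines (median -0.54; 18% and 14.8% of all genes). H1f0, the linker histone of resting cells, was at 262 and 297 in wild-type EpiLCs, 2691 and 1760.5 in wild-type and 924 and 1099 in TKO day 2 cells without cytokines, and 723 and 869.99 in PGCLCs. It rose in PGCLCs (1.55, SE 0.23, adjusted p = 0.000108), was higher in TKO than in wild-type EpiLCs (1.13, SE 0.23, adjusted p = 0.00625) and lower at day 2 (-1.17, SE 0.22, adjusted p = 0.00104). H2az1, the H2A.Z gene, fell in PGCLCs (-1.60, SE 0.34, adjusted p = 0.00198) and was lower in TKO day 2 cells (-1.30, SE 0.34, adjusted p = 0.00921). H3f3a, an H3.3 gene, was lower in both (-0.73, adjusted p = 0.0251, and -1.14, adjusted p = 0.00245), and H3f3b was lower in TKO day 2 cells (-0.49, adjusted p = 0.0448). H2ax, the damage-responsive variant, fell in PGCLCs (-0.96, SE 0.27, adjusted p = 0.00992).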

How the data were processed

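RNA-seq of rRNA-depleted total RNA was prepared with a directional kit. The authors trimmed reads with Trim Galore 0.5.0 and cutadapt 1.16, aligned them to mm10 with STAR 2.7.1a and counted fragments over refGene exons with featureCounts (Subread 1.5.2), ignoring strand and leaving out multi-mapping fragments and fragments overlapping several genes; the deposited values are these raw counts. From the table, 33 comment lines that name no gene were left out. Samples were grouped from the sample labels, and library totals set the counting precision.

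Counts were tested with edgeR 4.0.16 (R 4.3.3): filterByExpr by group, TMM factors, a model of 9 group means over all 18 libraries, glmQLFit and glmQLFTest, with Benjamini-Hochberg adjustment over 16582 genes. The common biological coefficient of variation was 0.222. A gene was called at an adjusted p below 0.05. SE is the log2 fold change over the square root of F. Levels are counts over DESeq2 1.42.0 size factors, and figures were drawn with matplotlib 3.10.9. The script was tested on simulated counts. Windows of 50 bases and stem-loops were read from GENCODE M21 transcripts and promoters from RefSeq.

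The members and gene lists were chosen with earlier results of these data known. Named with values were the 3 most abundant members of each type, the 2 highest and 2 lowest called fold changes per comparison (mean of 50 or more normalised counts), every H1 member, H2ac1, H2bc1, every member outside the chromosome 13 cluster, and listed genes that a result turns on. Alternatives were DESeq2, other scalings and filters, Rn45s or the members left out of the scaling, the replicate number as a block, a fit of only the libraries compared, a fold limit, and each library left out in turn.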

Additional observations from a re-analysis of the deposited data

Results flagged for a closer look

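At day 6, the change with cytokines in TKO cells was set against that in wild-type cells by an interaction term. The study describes only the wild-type day 6 cells with cytokines as sorted, so genotype and sort cannot be told apart here. By the quasi-likelihood test of edgeR with Benjamini and Hochberg's adjustment, 21% of all genes were called higher and 22.0% lower. Of the 61 members, 28 were called higher and 2 lower, 30 in all. Leaving out 1 library gave 20 to 45. The largest positive terms among the named members were those of H2bu2 (3.28, SE 0.43, adjusted p = 2.62e-05) and Hist1h4m (3.08, SE 0.67, adjusted p = 0.00173). H1f6 had a negative term (-2.45, SE 0.44, adjusted p = 0.0004), as did H2ac1 (-5.30, SE 1.07, adjusted p = 0.00103), whose fitted value rests on 2 counts in the wild-type cells without cytokines.

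The change from EpiLC to day 2 without cytokines differed between genotypes for 3 members by the same test, where 6.08% of all genes had a higher and 6.19% a lower call, and for 1 to 5 members with a library left out. These were H2ac1 (4.93, SE 0.74, adjusted p = 0.000576), H2bc1 (3.82, SE 0.88, adjusted p = 0.0104, not called without wild-type EpiLC replicate 2 or day 2 replicate 2) and Hist1h2bp (-1.63, SE 0.50, adjusted p = 0.0459, not called with RLE factors or without either wild-type replicate at either time).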

How the results depend on the processing

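With 2 libraries a group, counts of called members depended on single libraries and on how many genes and libraries entered the fit, while RLE factors, leaving Rn45s or the members out of the scaling, and a mean CPM of 1 as the filter kept all 17 counts within 1.5 times. The cause of the other changes was not tested.

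Leaving out each library gave 3 to 7 calls for wild-type day 2 without cytokines against EpiLCs, 1 to 47 for wild-type day 6 against day 2, 20 to 24 for wild-type PGCLCs against EpiLCs, 14 to 53 for wild-type day 6 with against without cytokines, and, for TKO against wild-type, 0 to 2 in EpiLCs, 16 to 34 at day 2, 17 to 45 at day 6 without and 3 to 12 with cytokines. For TKO day 2 against EpiLCs it gave 0 to 3 with and 1 to 8 without cytokines, for cytokines in TKO cells 0 to 3 at day 2 and 1 to 3 at day 6, for TKO day 2 against wild-type PGCLCs 3 to 11, and for the interactions 20 to 45 (cytokines) and 1 to 5 (time).

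DESeq2 called 7 members in TKO against wild-type EpiLCs, 2 and 19 in TKO day 2 with and without cytokines against EpiLCs, 25 and 12 for cytokines in TKO cells at day 2 and day 6, and 5 in the time interaction. Library size alone gave 23 in wild-type day 2 against EpiLCs, 19 in PGCLCs against EpiLCs, 1 in TKO against wild-type EpiLCs and 5 in TKO day 2 without cytokines against EpiLCs. With no filter on low counts there were 10 in wild-type day 6 against day 2, 6 and 20 in TKO against wild-type EpiLCs and day 6 cells with cytokines, 3 and 23 in TKO day 2 with and without cytokines against EpiLCs, 30 and 17 for cytokines in TKO cells at day 2 and day 6, 32 in TKO day 2 against PGCLCs and 11 in the time interaction. A fit of only the libraries compared gave 13 and 1 in wild-type day 2 against EpiLCs and day 6 against day 2, 10 in wild-type day 6 with against without cytokines, 13, 6 and 23 in TKO against wild-type EpiLCs and day 6 cells without and with cytokines, 6 and 27 in TKO day 2 with and without cytokines against EpiLCs, 3 in TKO day 6 against day 2 without cytokines, 42 and 20 for cytokines in TKO cells, 42 in TKO day 2 against PGCLCs and 19 in the time interaction. With a log2 fold change beyond 2 also asked for, the counts were 2, 2, 6 and 6 in the 4 wild-type comparisons in the order above, 0, 4, 5 and 2 in TKO against wild-type, 1 in TKO day 2 without cytokines against EpiLCs, 4 and 1 for cytokines in TKO cells, 2 in TKO day 2 against PGCLCs and 12 in the cytokine interaction. The replicate block gave 1 call in TKO day 2 with cytokines against EpiLCs and moved no other count by over 1.5 times; replicate numbers did not pair the samples (correlations of deviations from -0.145 to 0.162 over 36 pairs of groups).

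Values of single members that were called in either fit reversed in 12 cases, all without wild-type day 6 cytokine-free replicate 2. Without replicate 1 and without replicate 2, the values from day 2 to day 6 were 0.67 and -0.75 (H1f5), 0.51 and -0.65 (H2ac15), 1.01 and -0.58 (H2ac4), 0.54 and -0.87 (H2bc3) and 0.65 and -0.87 (H4c12). With against without cytokines they were -0.75 and 0.67 (H2bc3), -0.46 and 0.58 (H2bc8), -0.68 and 0.54 (H3c3), -1.48 and 0.030 (H4c12) and -1.35 and 0.0035 (H4c8), and in TKO against wild-type cells -0.47 and 0.58 (H2bc8) and -0.55 and 0.67 (H3c3).

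As CPM without Rn45s, log2 differences of summed levels from wild-type EpiLCs moved by more than the spread. For wild-type day 2 without cytokines they were 0.11 (all members), 0.11 (H2A), 0.34 (H2B), 0.14 (H3) and 0.18 (H4). For wild-type PGCLCs they were -0.85 (all), -0.89 (H1), -0.90 (H2A), -0.85 (H2B), -0.69 (H3, and -0.86 as TMM-scaled CPM) and -0.84 (H4). For TKO cells without cytokines at day 2 they were -1.02 (all), -1.13 (H1), -0.83 (H2A), -0.59 (H2B), -0.86 (H3) and -1.34 (H4), and at day 6 -0.71 (all), -0.80 (H1), -0.55 (H2A), -0.31 (H2B) and -0.59 (H3). With cytokines at day 2 they were -0.095 (all), -0.085 (H1) and -0.21 (H3), and for TKO EpiLCs -0.65 (H1).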
